A study of Mus musculus with 7 samples.

Results

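The microRNAs described here are those whose array names begin with miR-297, miR-466, miR-467, miR-574, miR-669 or miR-1187. These families are called repeat-rich for runs of alternating uracil and guanine or of cytosine and adenine. Such runs were read here only in the 9 names with a sequence. The rule took 42 of the 611 mouse microRNA names on the array, with 114 of its 1759 mouse probes, whether or not they gave signal. The families were picked out by earlier results on these same 7 arrays, so their levels and their difference between genotypes are a description and support nothing.

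Whole-kidney RNA of male mice 3.5 to 4 weeks old was hybridised, 1 mouse per array, to single-colour Agilent microRNA arrays after 100 ng of total RNA had been labelled with cyanine 3. The 4 wild-type kidneys (mgb+/+) are labelled normal, and the 3 megabladder kidneys (mgb-/-) are labelled obstructed. The mutants are megabladder mice 2, 3 and 4; the series describes 4 mutants, and megabladder mouse 1 was not analysed here. Megabladder mice lack normal bladder smooth muscle and develop urinary obstruction, and the comparison asks how microRNA levels in their kidneys differ from those of age-matched controls. Nothing in the labels describes pooling.

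MicroRNAs are short RNAs cut from a hairpin, and each pairs with messenger RNAs mainly through its seed, bases 2 to 8. The 2 arms of a hairpin are named 5p and 3p, and in older names a star marks the arm thought to be the less abundant. Sfmbt2, which encodes a Polycomb group protein, holds a large tandem cluster of microRNA genes of the miR-297, miR-466, miR-467 and miR-669 families in mouse, and is known for paternal expression in the placenta. The miR-574 hairpin lies outside that cluster.

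Names were matched to RefSeq genes of assembly GRCm38.p6, which places 72 microRNA genes within the span of Sfmbt2 on chromosome 2, 71 of them of those 4 families. Of the 40 names that matched, 28 had genes only there, 3 had genes there and elsewhere (miR-297a*, miR-466f-3p and miR-466f-5p), and 9 lay only elsewhere. The label of an Sfmbt2 cluster therefore covers most of the names and not all of them. miR-466a-3p and miR-466a-5p were not matched.

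RefSeq (GRCm38.p6) gave a mature sequence for 9 names, 7 of them measured. They are shown because they let the repeat content be set beside the signal, and capitals mark the seed:
miR-574-5p: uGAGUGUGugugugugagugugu
miR-574-3p: cACGCUCAugcacacacccaca
miR-1187: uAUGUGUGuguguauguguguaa
miR-669n: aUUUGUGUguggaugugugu
miR-466i: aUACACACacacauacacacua
miR-467f: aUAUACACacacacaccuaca
miR-467g: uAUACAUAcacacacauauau
miR-466j: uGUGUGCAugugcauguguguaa
miR-466k: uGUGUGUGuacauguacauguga

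The first 7 were measured and the last 2, miR-466j and miR-466k, were not; miR-466i is listed there as miR-466i-3p. All 9 seeds differ, so no seed is shared within this set. An unbroken run of at least 8 letters of UG or CA occurs in 7 of the 9, against 13 of the 1738 mature sequences in the table, 0.748%. The 13 include these 7, and only 9 of the 42 names matched a sequence, so that share is not an independent background. The longest UG run is 13 letters in miR-574-5p and 11 in miR-1187. The longest CA run is 12 letters in miR-467f, 11 in miR-466i and 9 in miR-467g. miR-574-3p and miR-466j do not reach that length, with longest runs of 7 letters.

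Of these, miR-574-3p and miR-574-5p come from 1 hairpin on chromosome 5, within the spans of Fam114a1 and Tlr6. miR-467g lies on chromosome 5 within Grk4, and miR-1187 on chromosome 5 within no listed gene. miR-466i lies on chromosome 13 within Cdk13, miR-467f on chromosome 11 within Fxr2, and miR-669n on chromosome 3 within Slc30a7. The genes of these 7 measured names therefore lie outside the Sfmbt2 cluster. Whether a probe for 1 repeat-rich name also takes up RNA of another was not tested, so signal cannot be assigned to 1 gene. miR-466j and miR-466k also lie only elsewhere. No sequence was at hand for any name with a gene in the cluster, so the repeat content of those names was not read.

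The wild-type arrays held positions in the first row of a slide and the megabladder arrays in the second. The effect of the row cannot be told apart from that of genotype. Whether all 7 arrays shared 1 slide was not checked. No 2 of the 7 arrays held identical probe values. A probe was counted where at least 0.5 of its spots were well above background, and 353 to 404 of 1857 probes were on each array, with wild-type mouse 4 lowest. Kidney tubule microRNAs were present throughout: 7 of 8 were measured, with a summed level of 4157 to 4384 scaled units in wild-type and 3681 to 4491 in megabladder kidneys, and miR-215 was the one not measured. Summed levels of the measured microRNAs of other cell types were, in wild-type and megabladder kidneys, 2129 to 2811 and 1952 to 3724 for erythroid cells (3 of 3), 126.1 to 174.6 and 120.2 to 170.9 for leukocytes (3 of 5), 1565 to 1627 and 1364 to 1668 for endothelium (2 of 2), 150.2 to 190.5 and 166.0 to 206.6 for muscle (2 of 4), and 47.4 to 52.6 and 41.5 to 96.4 for urothelium (2 of 2). miR-1 and miR-133a, which define striated muscle, were not measured, nor were miR-124, miR-9, miR-122 and miR-375 of neurons, liver and pancreas. Their part in the results below was not tested. In whole tissue, fewer cells of a type and less RNA per cell cannot be told apart.

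Wild-type mice 3 and 4 stood apart from the other 5 mice for these families. Well above background were 47 member probes in wild-type mouse 1, 43 in mouse 2, 7 in mouse 3 and 6 in mouse 4, against 44, 44 and 43 in megabladder mice 2, 3 and 4. The other mouse probes did not follow: 342, 341, 368 and 339 of 1645 were above background in the wild-type mice and 352, 322 and 348 in the megabladder mice. The median signal of the measured member probes was 57.1, 53.3, 2.23 and 1.59 scanner units in the wild-type mice and 50.4, 51.8 and 39.5 units in the megabladder mice before any scaling. After scaling it was 50.5, 41.9, 1.56 and 1.58 units in the wild-type mice and 64.9, 53.8 and 61.2 units in the megabladder mice. In both forms, wild-type mice 3 and 4 were far below every other mouse, and the other 5 lay close together.

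**Figure D1:**
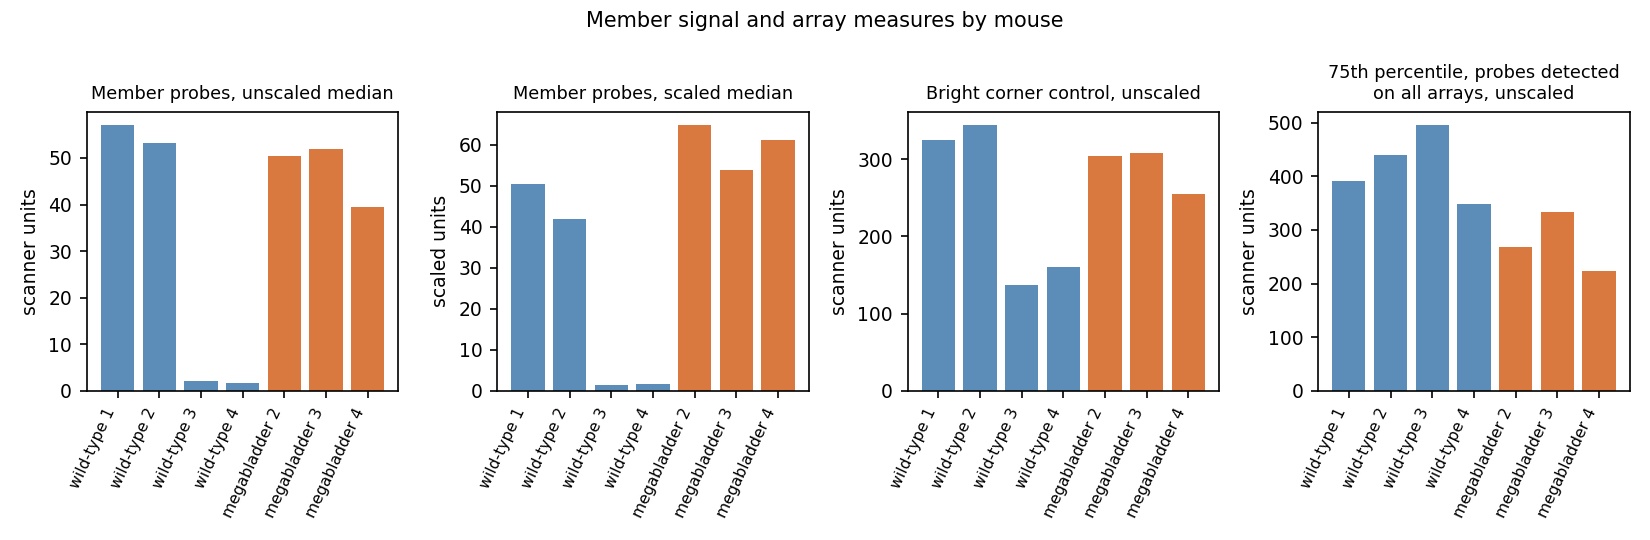
Bars give 1 array each (blue wild-type, orange megabladder): the median signal of the 44 measured member probes before and after scaling, the median of the bright corner control spots, and the 75th percentile of the probes above background on all arrays. The vertical axes are in scanner units, or scaled units in the second panel, and start at 0. Member signal is 2.23 and 1.59 units in wild-type mice 3 and 4 and at least 39.5 in the others, and the bright corner control is also lowest in those mice.

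A control on the arrays moved with them. The bright corner spots, control features present 10 times per array, had medians of 325.0, 344.5, 136.9 and 160.5 units in the wild-type mice and 304.2, 307.8 and 255.3 units in the megabladder mice. Its correlation with the member median over the 7 arrays was 0.965, given as a description with no test. Of the 19 other control probes over 100 units, 0 were lowest in wild-type mice 3 and 4, and all 19 were highest in wild-type mouse 3. The part of the bright corner difference in the member values was not tested.

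Every measured member probe showed the split. Wild-type mice 3 and 4 had the lowest signals among the 7 arrays in 44 of 44 measured member probes, and in 27 of 70 (38.6%) of the member probes that were not measured. Only 7 and 6 member probes were above background in mice 3 and 4. Most measured probes therefore passed the filter through the other 5 mice, and the count of 44 is in large part fixed by that filter. Among other mouse probes the same was true of 101 of 360 measured (28.1%) and of 10.4% of the 1285 not measured. Without scaling the count of other measured probes fell to 27 (7.5%), and the member counts stayed at 44 and 27. The probes kept their relation to each other in the other 5 mice: over the 44 probes, the correlation across probes between 2 of those arrays was 0.976 to 0.996 in 10 pairs. Probes of 1 array are not independent replicates.

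**Figure D2:**
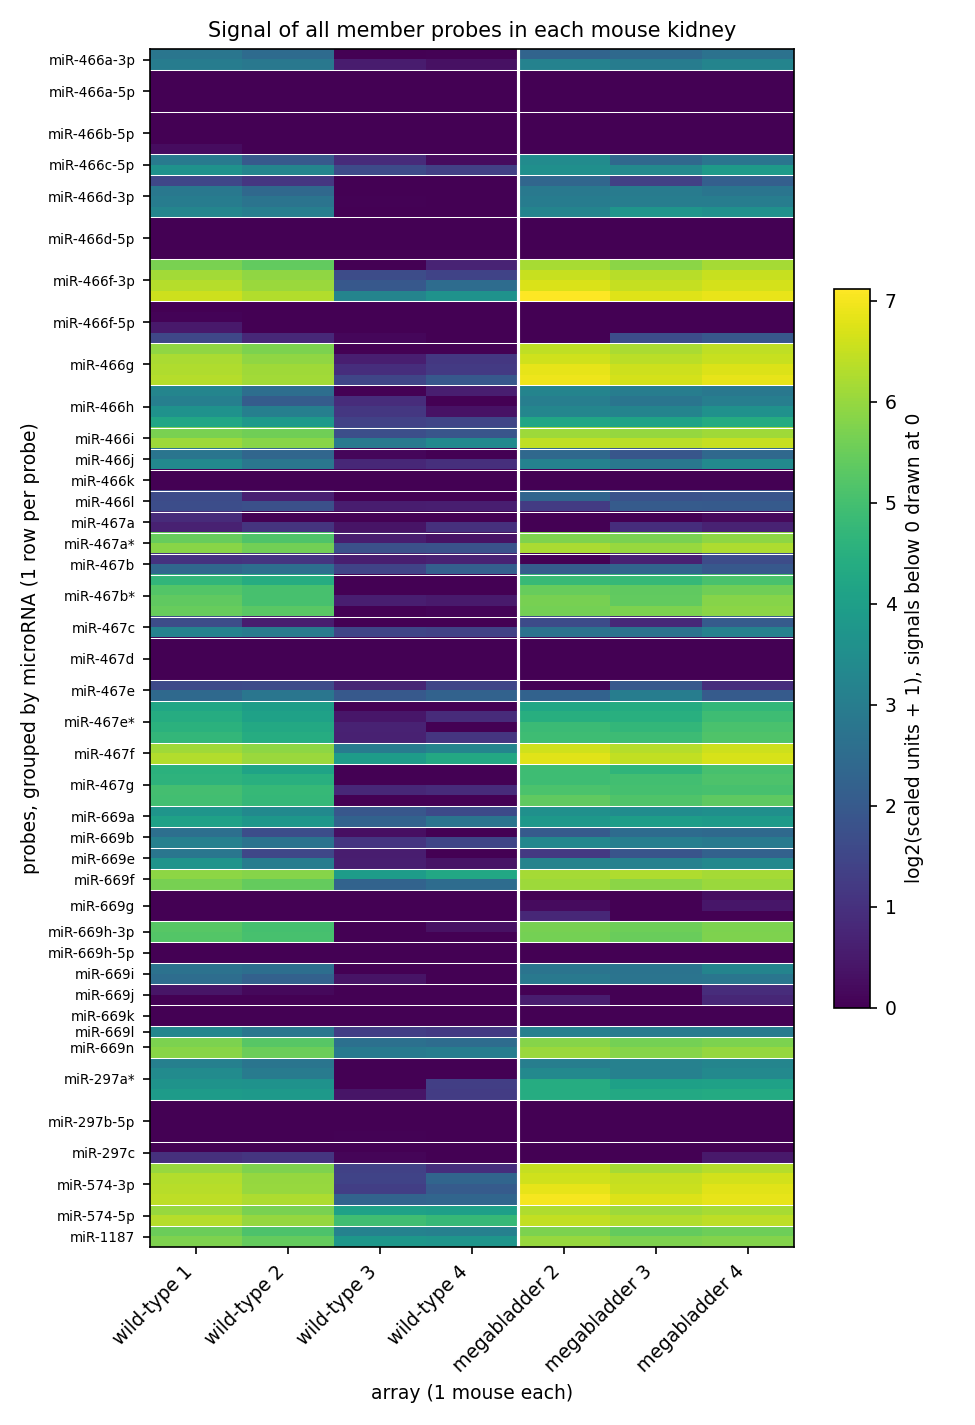
Each row is 1 of the 114 member probes, grouped by microRNA, and each column 1 mouse; colour is log2 of scaled units plus 1, with signals below 0 drawn at 0. Bright rows are dark in the columns of wild-type mice 3 and 4, and rows of names such as miR-467d and miR-466k are dark in every column.

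A microRNA was called measured where a probe was well above background on at least 3 arrays, which 17 of the 42 names were. By family these were 4 of 14 for miR-466, 5 of 10 for miR-467, 4 of 12 for miR-669, 1 of 3 for miR-297, 2 of 2 for miR-574 and 1 of 1 for miR-1187. By arm, 4 of 4 starred names, 3 of 5 ending in 3p, 1 of 8 ending in 5p and 9 of 25 with no arm in the name were measured. The filter could be passed through the megabladder mice alone, or through these and wild-type mice 1 and 2, so the 17 are not all members. Low signal in wild-type mice 3 and 4 among the 17 is in part a product of the filter.

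Names for the 2 arms of a hairpin could differ in whether they were seen. miR-467a*, miR-467b* and miR-467e* were measured while miR-467a, miR-467b and miR-467e were not. miR-466f-3p and miR-669h-3p were measured while miR-466f-5p and miR-669h-5p were not. miR-574 was the only hairpin of these families with both arms measured. Levels of different probes are not comparable on these arrays, so this says which arms passed the filter and not which is more abundant.

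Levels below are log2 of scaled scanner units, with a floor of 3.51 (11.4 units) at which no order is read. A difference of a member at the floor in wild-type mice 3 and 4 is set in part by the floor, so differences of such members are not ranked. Values run from mouse 1 to 4 in the wild-type group and from mouse 2 to 4 in the megabladder group. The median over the 17 measured members was 5.64, 5.35, 3.51 and 3.51 in wild-type mice 1 to 4, and 5.92, 5.70 and 5.83 in megabladder mice 2 to 4. The median over the 196 other measured microRNAs was 5.35, 5.40, 5.30 and 5.25 in the wild-type mice and 5.45, 5.58 and 5.52 in the megabladder mice. The member median of wild-type mice 3 and 4 was at the floor, while that of the other microRNAs spanned little in any mouse.

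In the miR-466 family, miR-466g was 6.17, 5.95, 3.51 and 3.51 in the wild-type mice, and 6.69, 6.44 and 6.62 in the megabladder mice. miR-466f-3p was 6.16, 5.90, 3.51 and 3.51 against 6.62, 6.36 and 6.54. miR-466i was 5.85, 5.69, 3.51 and 3.51, against 6.24, 6.17 and 6.27. All 3 had every megabladder value above every wild-type value, by a small margin over wild-type mouse 1 and a wide one over mice 3 and 4. Their differences, megabladder minus wild-type, were 1.80, 1.74 and 1.59, and 3.36, 2.73 and 2.27 with a floor of 1 unit. For miR-466h, whose levels ran from the floor to 4.31, the difference was 0.45 and the groups overlapped.

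In the miR-467 family, miR-467f was 6.18, 5.96, 3.67 and 3.86 in the wild-type mice and 6.69, 6.39 and 6.61 in the megabladder mice. miR-467a* was 5.64, 5.35, 3.51 and 3.51, against 5.96, 5.83 and 6.05. miR-467b* was 5.14, 4.90, 3.51 and 3.51, against 5.35, 5.28 and 5.56. The groups did not overlap for any of the 3, nor for miR-467e* and miR-467g, which ran from the floor to 4.92 and to 5.10. For miR-467e*, 1 probe did overlap, at 17.7 scaled units in wild-type mouse 1 and 17.4 in megabladder mouse 2. The difference of miR-467f, which had a probe above background in all 7 mice, was 1.65, and 1.80 with a floor of 1 unit. The other 4 were at the floor in wild-type mice 3 and 4, and that of miR-467e* was 0.79, against 2.53 with a floor of 1 unit.

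In the miR-669 family, miR-669f was 5.75, 5.60, 3.67 and 3.84 in the wild-type mice and 6.09, 6.05 and 6.08 in the megabladder mice. miR-669n was 5.76, 5.35, 3.51 and 3.51, against 5.92, 5.70 and 5.83, and wild-type mouse 1 was inside the megabladder range. miR-669h-3p was 5.21, 4.99, 3.51 and 3.51, against 5.61, 5.49 and 5.71. miR-669a differed from the other measured members of the family: its wild-type levels were 4.00, 3.67, 3.51 and 3.51, and its megabladder levels 3.69, 3.86 and 3.77. Its difference was 0.10, and wild-type mouse 1 was the highest of all 7. These levels lie near the floor in every mouse, so the difference is set in part by the floor. With a floor of 1 unit it was 0.76, where that of miR-669f was 1.72.

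miR-297a*, the one measured name of its family, was 3.67, 3.64, 3.51 and 3.51 in the wild-type mice and 4.33, 4.09 and 4.13 in the megabladder mice. All 3 megabladder values were above the wild-type values, and it was above background in 2 of the 4 wild-type mice (mice 1 and 2) and in all 3 megabladder mice. miR-1187 was 5.61, 5.25, 3.58 and 3.55 against 5.85, 5.55 and 5.64. Wild-type mouse 1 was inside the megabladder range for miR-1187, and the difference was 1.18.

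The 2 arms of the miR-574 hairpin were both measured. miR-574-3p was 6.25, 5.98, 3.51 and 3.51 in the wild-type mice, and 6.73, 6.46 and 6.64 in the megabladder mice. miR-574-5p was 6.16, 5.82, 4.44 and 4.32 against 6.35, 6.17 and 6.28. Neither arm's groups overlapped, although miR-574-5p in wild-type mouse 1 came within a small margin of megabladder mouse 3. The brighter probe of the 5p arm did overlap, at 79.3 scaled units in wild-type mouse 1 and 77.8 in megabladder mouse 3. Both probes of the 5p arm were above background in all 7 mice, and the 4 probes of the 3p arm were not in wild-type mice 3 and 4. The difference was 1.08 for the 5p arm, also with a floor of 1 unit. For the 3p arm it was 1.80 at the floor used and 2.95 with a floor of 1 unit.

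**Figure D3:**
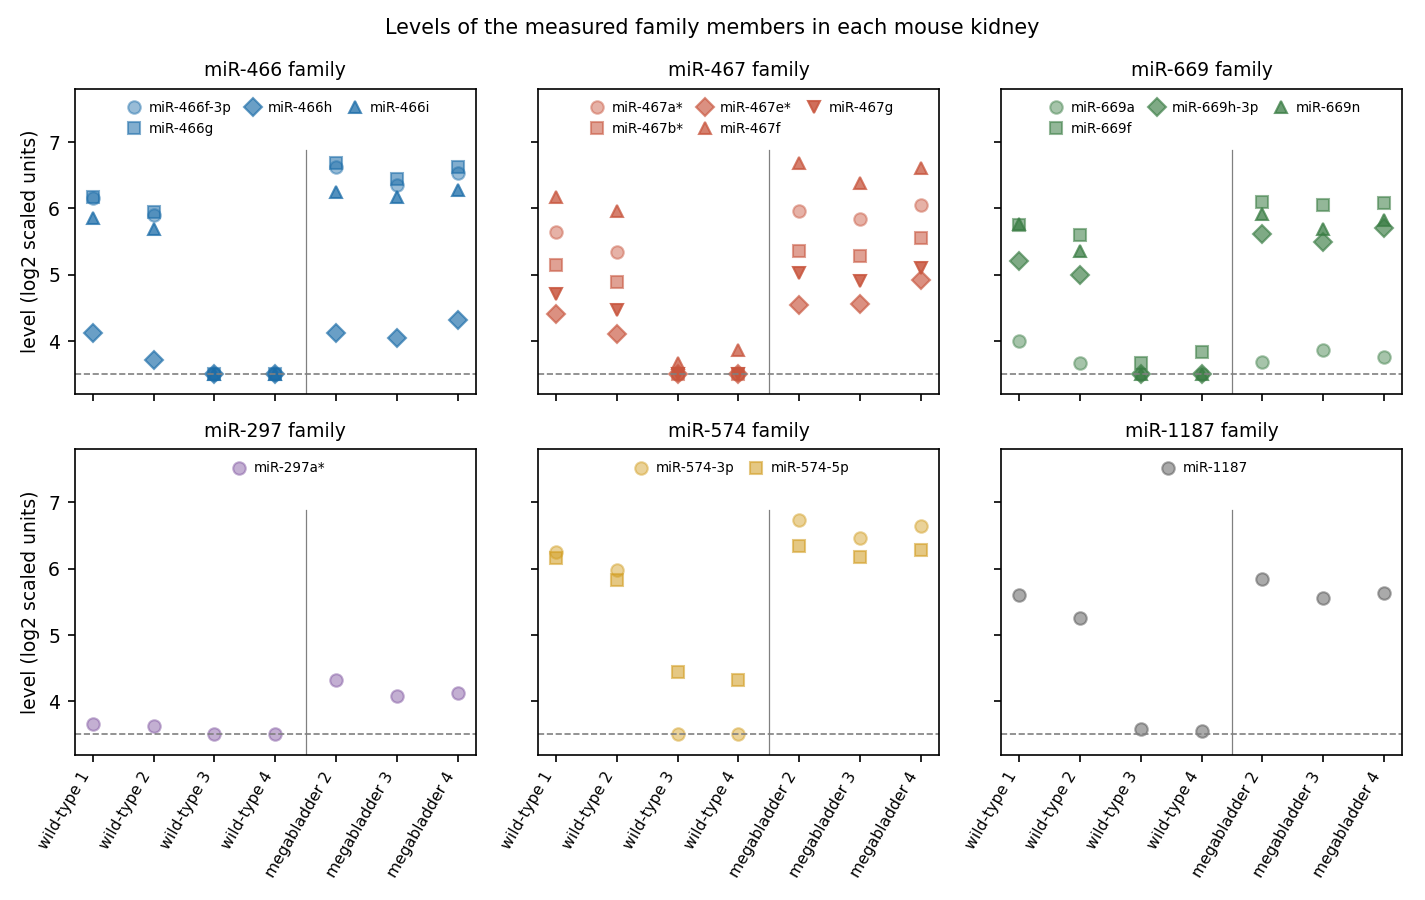
Levels of the 17 measured members (log2 scaled units) in each of the 7 mice, 1 panel per family and 1 marker shape per microRNA, with the floor of 3.51 as a dashed line. The markers of wild-type mice 3 and 4 lie at or near the floor in every panel except miR-574-5p, at 4.44 and 4.32.

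Only 6 member probes were above background in all 7 mice, and for these the share of wild-type mouse 1 signal left in mice 3 and 4 could be read. It was 24.5% and 23.8% for one probe of miR-574-5p and 37.5% and 32.9% for the other. It was 23.8% and 22.7% for miR-1187, 24.1% and 30.8% for miR-669f, 18.3% and 23.9% for miR-467f, and 8.78% and 12.2% for 1 probe of miR-466f-3p, whose signal in mouse 3 lay under the floor. The mean over probes was below 0 after background subtraction in both mice for miR-467b*, miR-467g and miR-669h-3p. The highest probe of each was above 0 there, reaching 0.84 scaled units for miR-467g in mouse 4. Among measured probes, no member had differences between genotypes that went opposite ways; miR-669a has 1 measured probe (0.10) and 1 not measured (-0.03). The 4 probes of miR-466f-3p gave 50.6 to 93.6 scaled units in wild-type mouse 1, -0.20 to 8.22 in mouse 3 and 71.6 to 138.0 in megabladder mouse 2. The 4 probes of miR-466g gave 60.4 to 80.0, -0.68 to 1.80 and 85.1 to 122.3 units in the same mice.

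Over all 17 measured members the difference was above 0, except that miR-669a was below 0 with all-probe, quantile or median scaling, without scaling and without wild-type mice 3 and 4. The median over the members was 1.28, against 0.09 over all 213 measured microRNAs. The median was 1.22 for the 8 measured names of the Sfmbt2 cluster only, 1.17 for the 2 that also have genes elsewhere and 1.28 for the 7 elsewhere. In each of these location groups all measured names had wild-type mice 3 and 4 lowest, which the filter in large part fixed. With the names not measured included, it was 16 of 28 for the cluster only. It was 2 of 3 for names with genes in both places and 8 of 9 for those elsewhere. These medians include members at the floor, and the median over the 17 was 2.27 with a floor of 1 unit.

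In limma's test with Benjamini-Hochberg adjustment over all 213 microRNAs, 1 of the 17 members was called at 0.05, beside a background of 3.29% in either direction and 2.82% higher. The called member was miR-297a*, with a difference of 0.60 (95% interval 0.37 to 0.84) and an adjusted p of 0.0315. It was at the floor in wild-type mice 3 and 4 and close to it in mice 1 and 2. Its difference, interval and p are therefore set in part by the floor. With a floor of 1 unit the difference was 2.22 and the call was lost (limma's adjusted p 0.337). The call was also lost without any single wild-type mouse (limma's adjusted p 0.0686, 0.0702, 0.101 and 0.0919 without mice 1, 2, 3 and 4) and without megabladder mouse 2 (0.108). Over all alternatives the adjusted p of miR-297a* ran from 0.0176 to 0.467. All 213 gave 6 calls higher and 1 lower, and without scaling 1 higher and 68 lower. The 7 calls became 0 without wild-type mouse 1, 2 or 3 or megabladder mouse 2, 1 without wild-type mouse 4 and 19 without megabladder mouse 3. For the other 16 members limma's adjusted p ran from 0.138 for miR-467e* to 0.769 for miR-669a. Unadjusted, 13 of 17 had a p under 0.05, against 23% of all microRNAs, and that count ran from 1 to 16 when 1 mouse was left out. It was 16 and 15 of 17 without wild-type mouse 1 and mouse 2 (47 and 46 of all 213) and 3 without mouse 3 or mouse 4 (26 and 28 of 213). Without megabladder mouse 2, 3 and 4 it was 2, 4 and 1 (32, 48 and 35 of 213). In 13 of 17 members every megabladder kidney exceeded every wild-type kidney, against 18.8% of all microRNAs. Nothing is read from these counts, since the contrast helped to choose the families.

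**Figure D4:**
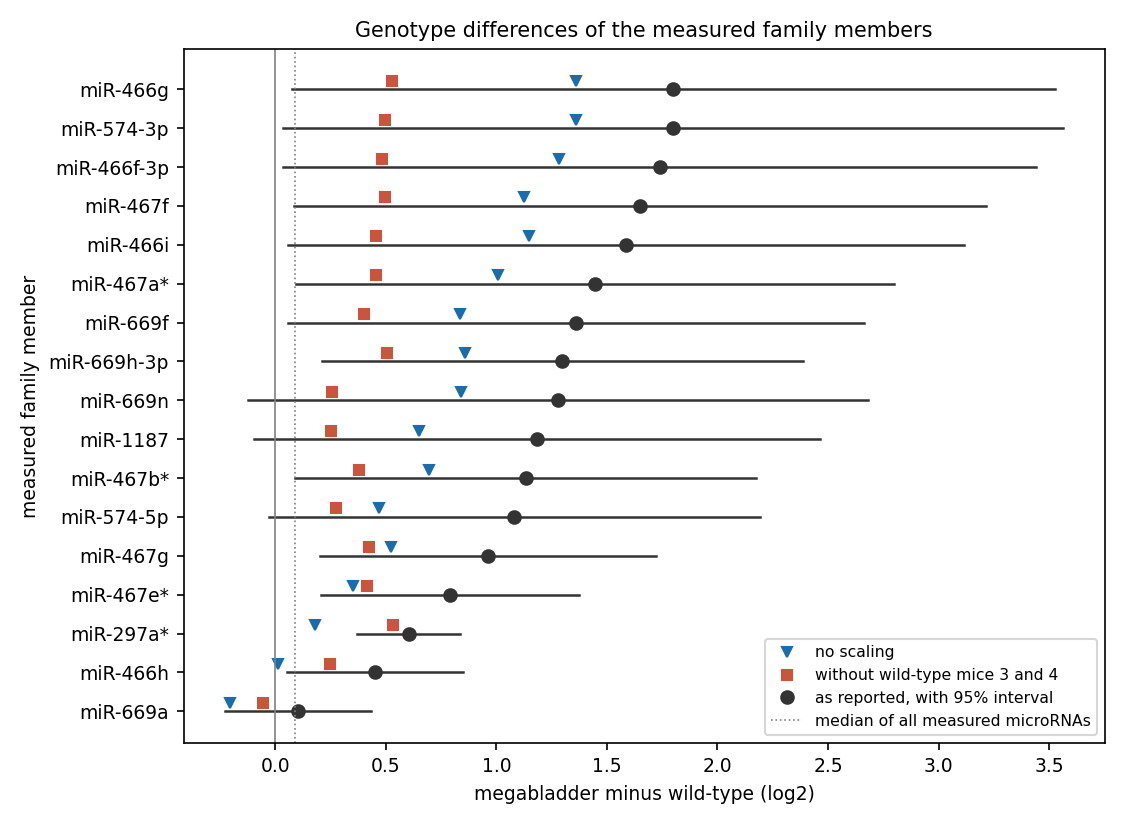
Megabladder minus wild-type difference (log2) of each measured member, with its 95% interval from limma, and the same difference without scaling (triangles) and without wild-type mice 3 and 4 (squares). Most intervals are wide, that of miR-574-3p running from 0.03 to 3.56, and the squares all lie at or below 0.53.

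The differences were smaller without wild-type mice 3 and 4. With both left out, the member median was 0.42 against 0.06 over all microRNAs, and 0 of 17 members were called by limma against 0.469% of all microRNAs. At an unadjusted p under 0.05 there were 11 of 17 members, against 16.4%. miR-297a* then had a difference of 0.53 with an adjusted p of 0.179 from limma (0.0176 to 0.467 over all alternatives). miR-669a turned to -0.06.

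The order of the groups among the other 5 mice depended on scaling. Without scaling, wild-type mice 1 and 2 had member medians of 5.82 and 5.69, and the megabladder mice had 5.55, 5.64 and 5.20, so the wild-type values were the higher ones. The count of members in which every megabladder kidney exceeded every wild-type kidney was 0 of 17 without scaling (2.35% of all microRNAs) and 2 with all probes as the scaling set (3.29%), against 13 as reported. It was 12 with median scaling (14.6%), 11 with quantile scaling (8.45%) and 13 with the member probes left out of the scaling set (20.2%). It was 17 with normexp background correction (46%), and 13 both with the software's total gene signal (20.7%) and with a floor of 1 unit (19.2%). Scaling moved the median of all microRNAs from -0.50 without it to 0.09 with it; relative to that median, the members' median was 1.33 without scaling and 1.19 with it, and it was 0.48 with normexp, 1.86 with total gene signal and 2.17 with a floor of 1 unit. Wild-type mice 3 and 4 were lowest for 16 or 17 of the 17 members in every one of these settings. All the settings kept the same 17 names, so the filter in large part fixed that count and nothing is read from it.

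The other measured microRNAs whose levels over the 7 arrays were most like the member median were miR-207 (Pearson's r 0.980), miR-468 (0.976), miR-877* (0.975), miR-28 (0.972) and miR-1196 (0.971). These values are a description over 7 arrays, with no test. miR-207 was 4.70, 4.61, 3.51 and 3.51 in the wild-type mice and 5.09, 4.96 and 5.30 in the megabladder mice. miR-468, miR-207 and miR-1196 were also at the floor in wild-type mice 3 and 4, and miR-28 was at 4.84 and 4.80 there. The least like were miR-690 (-0.924), miR-155 (-0.895) and miR-193 (-0.855), which were higher in wild-type mice 3 and 4 than in every other mouse. Among the members themselves r ran from 0.768 for miR-297a* to 0.999, and each member is part of that median.

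Of the 25 names that were not measured, miR-466c-5p and miR-669e had a probe above background on 1 array, in both cases wild-type mouse 1, and the others on none. The highest signal was under 3 scaled units for 13 of the 25 and at least 5 units for 10. Wild-type mice 3 and 4 had the lowest signals in 10 of the 25. Just under the limit for a measured name, the highest probe of miR-466c-5p gave 11.4, 8.36, 2.08 and 1.56 scaled units in the wild-type mice and 10.6, 9.11 and 13.7 units in the megabladder mice. Just over it, miR-669a was above background in wild-type mice 1 and 2 and in 2 megabladder mice.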

How the data were processed

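Each array's scanner file holds intensity values per spot deposited by the authors, per the file headers the output of Agilent Feature Extraction version 10.7.3.1 with background already subtracted, and the files name build mm9. Control spots and flagged spots were left out and spots averaged per probe. Each array was scaled to the 75th percentile over the 292 probes well above background on all 7 arrays, values were floored at 11.4 units and log2 taken, and a microRNA's level is the mean over probes above background on at least 3 arrays. The 213 measured microRNAs were tested with limma 3.58.1 (R 4.3.3), megabladder minus wild-type, adjusted by Benjamini-Hochberg at 0.05. The fit was also run on simulated data in which each microRNA was drawn independently and no floor was set. That run does not cover members that move together or lie at the floor. The labels number the mice and give no litters, so p-values measure the spread between these samples. Arrays have no count depth; their number limits precision. The members and lists were chosen with earlier results of these data known. Named in full are the 3 brightest measured members of each family, called members and both arms of miR-574; of the others, the 5 most and 3 least like the member median. Alternatives are in the closing section. Of the 196 other measured microRNAs, 32 matched a sequence name, so they were not searched for repeats.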

Additional observations from a re-analysis of the deposited data

Results flagged for a closer look

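Among 23 sets of 4 wild-type values (the 17 member levels and 6 array measures), 1 had a value far from the rest: wild-type mouse 3 had 368 other mouse probes well above background, against 339 to 342 in the other wild-type mice. Chance alone gives such a value in about 1 set in 20 where sets are independent. The 17 member sets moved together, and most had mice 3 and 4 tied at the floor, so that rate does not hold for them. For the member levels, mice 3 and 4 were low together, so neither was a lone value. The group of 3 megabladder mice was not looked at in this way.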

How the results depend on the processing

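The median member difference stayed above 0 under every alternative tried except no filter, where it was 0.00 over all 42 names. That 0.00 is set by the floor, since the 25 names not measured lie at or near it in every mouse. Apart from no filter, it also stayed within 1.15, the spread between wild-type mice, of its reported 1.28. That spread holds the gap between wild-type mice 1 and 2 and mice 3 and 4, so it is a wide limit. The median was 0.42 without wild-type mice 3 and 4, which still lies within it. The count of members called, 1 as reported, was 0 with scaling by all probes, quantile scaling, median scaling, no scaling, normexp, total gene signal, no filter (42 names tested), probes above background on all arrays (5 members tested), a floor of 1 unit and without wild-type mice 3 and 4. At those settings limma gave 0 to 17 members an unadjusted p under 0.05; the 17 came with normexp, where 113 of all 213 microRNAs had one. Leaving out 1 mouse gave 0 to 1. Calls over all microRNAs, 7 as reported, were 0 with all-probe and quantile scaling, normexp, total gene signal, no filter and a floor of 1 (30 to 113 at an unadjusted p under 0.05 in limma); 1 without wild-type mice 3 and 4; 2 with median scaling; 4 with probes above background on all arrays; 13 with limma's trend; 15 without member probes in the scaling set; 69 without scaling; and 0 to 19 without 1 mouse. Replicate numbers do not pair the samples (correlations of -0.21, 0.01 and 0.21; 1 of 3 mice correlated best with its own number); a replicate block gave 28 calls and 15 members called, of 17 (12.7% of all microRNAs called higher), and drops wild-type mouse 1. miR-669a reversed to -0.12 with all-probe scaling, -0.11 with quantile scaling, -0.0013 with median scaling, -0.21 without scaling and -0.058 without wild-type mice 3 and 4. The member median was 2.27 with a floor of 1 unit, where lower values are kept, and 0.94 without wild-type mouse 3 or 4; the cause of other shifts was not tested. The median signal of wild-type mice 3 and 4 lies under the floor, so their differences depend on it.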
